A study of Schizosaccharomyces pombe with 28 samples.

Results

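The wild type baseline of Schizosaccharomyces pombe (fission yeast) was described from the 11 arrays titled WT, of 28 arrays in the series: 3 from project 582, 5 from project 529 and 3 from project 488. The members were chosen by title alone, and the 3 sets are called WT 582, WT 529 and WT 488 below. The study asked which transcripts depend on Zfs1, a zinc finger RNA-binding protein of the tristetraprolin family, and hybridised WT and zfs1-null cells in each of its 3 projects. The zfs1-null arrays (3 in project 582, 5 in project 529 and 3 in project 488) are used here as other cultures of the same projects, and the cbf12-null and double null arrays of project 582 enter no comparison here. Every culture was untreated and was harvested in mid-log growth in YES, a rich medium of yeast extract and supplements. Its RNA was amplified, biotin-labelled and hybridised to Affymetrix Yeast_2 arrays. The labels give the molecule as poly(A)+ RNA, whereas the labelling protocol speaks of amplifying total RNA. The labels name the strain only as WT, with no further genotype or mating type. The series text calls the arrays biological replicates without saying how the cultures were separated, so the p-values below measure the spread between arrays of a project.

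Fission yeast divides by growth at its tips followed by septation, and in rich medium it proliferates as haploid cells of either the P or the M mating type. When nitrogen runs out, the transcription factor Ste11 switches on the pheromone pathway, cells of opposite type fuse, and the zygote passes through meiosis to form spores. In glucose-rich growth the genes of this programme, of the use of other carbon sources and of the stress-activated kinase pathway are known to be held low, while ribosomes and glycolytic enzymes are made in quantity. A wild type profile therefore shows both what a growing cell makes most of and which conditional programmes are low.

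The deposited values are probe set signals of the MAS5 algorithm, scaled by the authors so that the trimmed mean of all probe sets was 500.1 to 500.2 on each of the arrays used. Of 10928 probe sets, 2917 were annotated to 1 S. pombe gene, and they gave 2899 genes, with the brightest probe set standing for each of the 14 genes that had several. All 2899 genes lay above background on all 11 WT arrays, where background was the 95th percentile of the probe sets made for the other yeast species, 3.65 to 4.81 signal units. The deposited WT arrays differ in the width of their signal distribution: the SD of log2 signal across genes was 1.08 to 1.19 in WT 582, 1.35 to 1.39 in WT 529 and 1.22 to 1.27 in WT 488. Pearson correlations of log2 signal over 2899 genes were 0.976 to 0.993 within WT 582, 0.992 to 0.997 within WT 529 and 0.993 to 0.996 within WT 488, and replicate 1 of WT 582 stood apart from the other 2. The targeted gene went with the labels: zfs1 averaged 519 ± 81.3, 402 ± 15.4 and 490 ± 52.3 signal units in WT 582, WT 529 and WT 488, against 5.06 ± 2.31, 3.44 ± 3.00 and 0.54 ± 0.81 in the zfs1-null cells of the same projects (SD, n = 3, 5 and 3 in each strain).

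The brightest transcripts of WT cells encoded ribosomal proteins, glycolytic enzymes and a few other products of growth. Levels are given as the mean of the 3 project means of log2 signal, turned back to signal units, so that each project counts once. The most intense gene was ubi3 (SPAC6G10.11c), which encodes ubiquitin fused to a ribosomal protein. Its signal was 5624, 4951 and 4414 in WT 582, 7402, 7675, 8597, 7208 and 7423 in WT 529, and 6100, 6079 and 6702 in WT 488. It was highest in WT 529 and lowest in WT 582, and no WT 582 array overlapped either of the other sets. Its log2 difference between WT 582 and WT 529 was -0.62 (SE 0.072, limma with Benjamini-Hochberg adjustment over 2899 genes, adjusted p = 2.46e-06), against -0.11 after quantile normalization.

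Of the 24 brightest genes, 15 encoded proteins of the cytoplasmic ribosome, led by rpp202 at 5728, rpl4102 at 5590, rps2401 at 5496 and rpl42 at 5359 signal units. The ribosomal genes often occur as near-identical pairs, so the signal of a probe set cannot always be given to 1 copy. The others were cpc2 (4657), the homologue of the ribosomal scaffold RACK1, and met26 (4622), the enzyme of the last step of methionine synthesis. Glycolysis gave tpi1, triose phosphate isomerase, at 4579 and gpm1, phosphoglycerate mutase, at 4522. The remaining names were gua1 (4495), IMP dehydrogenase of guanine nucleotide synthesis, ini1 (4496), a small splicing protein, the small heat shock protein hsp9 (4461) and the RNA-binding protein vip1 (4446). The 2 stress-annotated genes hsp9 and vip1 thus stood among the 24 brightest signals of unstressed cells, at 3644 to 5693 and 3809 to 5170 across the 11 arrays.

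Levels differed by function over the whole range of the array. The 118 cytoplasmic ribosomal protein genes had a median signal of 3519, which is the 96.1 percentile of all genes, and 94 of them lay in the brightest 10 percent of genes, where 10% of all genes lie by definition. The 13 glycolytic and alcohol fermentation genes had a median of 3418 and 9 members in that class, with adh4 lowest at 969. The 18 translation factors had a median of 2889 and 11 members in it, led by sui1 at 4222 and tef101 (elongation factor EF-1 alpha) at 4026. Chaperones followed with a median of 2633 for 27 genes, led by wis2, sks2 and ssa2 at 4382, 4270 and 4179. In these 4 groups no member was in the dimmest 10 percent.

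Below the growth machinery came the enzymes of biosynthesis and of the cell's general upkeep. Histones (11 genes, median 2532), the vacuolar ATPase (13 genes, 2288), nucleotide synthesis (24 genes, 2210), amino acid synthesis (38 genes, 2042), the proteasome (28 genes, 1820), and the citric acid cycle with respiration (51 genes, 1599) all had median percentiles between 72.4 and 88.6. Splicing factors sat near the middle, with a median of 1034 for 80 genes. Among hexose transporters, ght5 at 3879 and ght8 at 3797 were far brighter than ght3 at 194 and ght7 at 39.8; Ght5 is the main high-affinity glucose transporter. Signals of different genes also carry the affinity of their probes and are not set per length, so these are orders of signal, not of molecules. For the 14 genes with several probe sets, probe sets of the same gene differed by a median of 0.20 and at most 8.48 (mae1) on the log2 scale. The source of that spread was not tested.

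**Figure D1:**
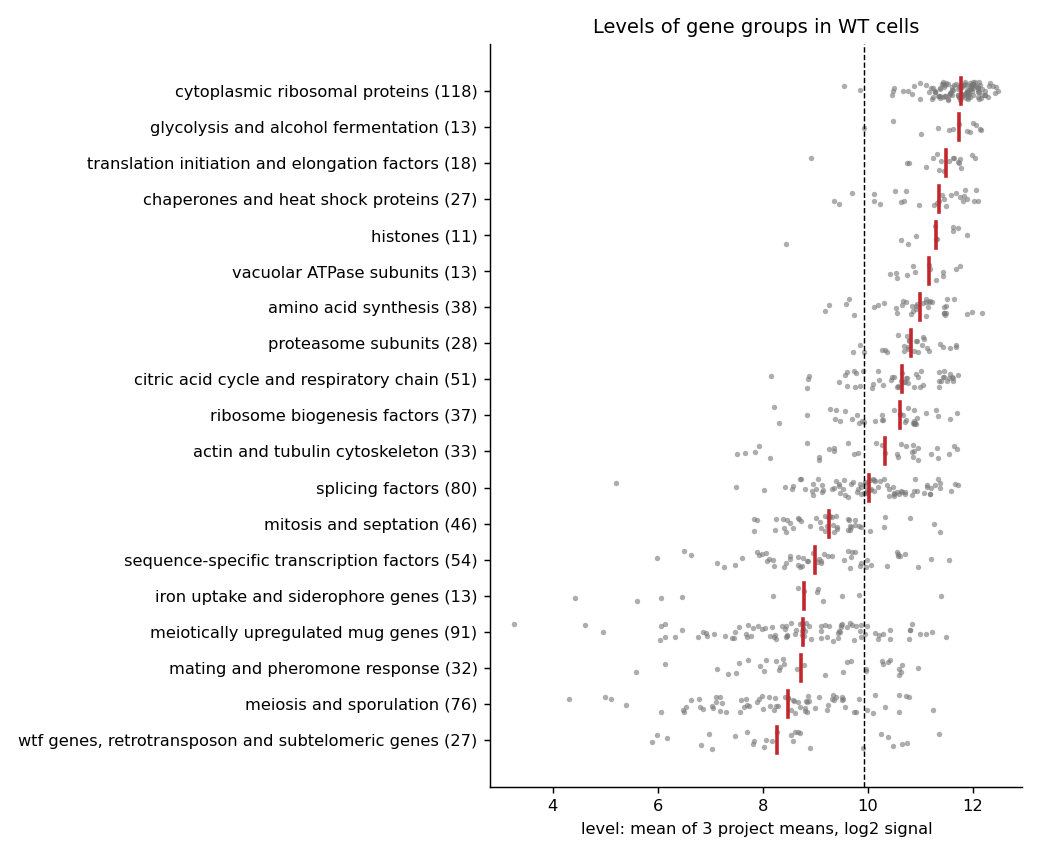
Level of each gene in WT cells by functional list. The horizontal axis is the log2 signal (mean of the 3 project means), each point is a gene, the red bar is the median of the list and the dashed line is the median of all 2899 genes. Ribosomal proteins, glycolysis and translation factors lie at the bright end, and meiosis, mating and the wtf and subtelomeric genes lie at the dim end.

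The dim end of the profile held the genes of conditional programmes. The dimmest was mug96 (SPBC1271.06c), named as a meiotically upregulated gene, at 10.95, 8.11 and 9.46 in WT 582, 8.98, 14.03, 13.6, 9.70 and 9.02 in WT 529, and 8.18, 8.69 and 9.39 in WT 488. The 3 sets overlapped, and mug96 ranked last of 2899 genes in each of them. Next came mei3 (SPBC119.04), the inhibitor of the Pat1 kinase that starts meiosis in diploid cells, at 23.5, 21.7 and 24.4 in WT 582, 19.3, 17.2, 18.3, 13.7 and 11.1 in WT 529, and 20.01, 22.4 and 22.8 in WT 488. These values were low in every array but above the background of 3.65 to 4.81 signal units.

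Among the 24 dimmest genes, meiosis gave also moa1 (31.7), which sets kinetochore orientation in meiosis I, the cyclins rem1 (42.0) and crs1 (66.8), meu15 (34.6) and 6 further genes named mug for meiotic upregulation. Metal handling gave str3 (21.4), a siderophore-iron transporter, fio1 (48.7), an iron transport oxidase, frp2 (66.5), a ferric reductase, and mfc1 (31.2), a copper transporter of the forespore membrane. The M-factor pheromone precursor mfm1 (48.2), the cation pump cta3 (50.8), say1 (59.3) and the zinc cluster factor grt1 (63.2) were also there. The general RNA-processing genes lsm8 (36.9), of the nuclear Lsm ring, and msl1 (38.7), of the U2 particle, and the exonuclease exo5 (63.3) were as dim. The other genes of the lsm8 ring read from 975 for lsm2 to 3375 for lsm3, with lsm4 at 1452, lsm5 at 1844, lsm6 at 2152 and lsm7 at 2581.

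As groups, the 76 meiosis and sporulation genes had a median signal of 357 (the 12.7 percentile), and 36 of them were in the dimmest 10 percent of genes, where 9.97% of all genes lie by definition. The 32 mating and pheromone genes had a median of 422 with 11 members there, and the 91 mug genes a median of 435 with 32. The 54 sequence-specific transcription factors had a median of 509 with 15 in the dimmest 10 percent and 1 in the brightest. Iron uptake (13 genes) had a median of 441, and the wtf and subtelomeric genes (27 genes) a median of 308.5 with 14 members in the dimmest 10 percent. The cell cycle lists lay between, with medians of 617 for 46 mitosis and septation genes and 640 for 33 G1/S genes.

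Mating-type markers did not assign the WT cells to 1 type. Of the M-cell markers, mam2, the receptor for P-factor, averaged 1364 ± 43.4, 1353 ± 81.1 and 1315 ± 58.9 signal units in WT 582, WT 529 and WT 488 (SD, n = 3, 5 and 3). Of the P-cell markers, map3, the receptor for M-factor, averaged 1535 ± 58.8, 1771 ± 64.2 and 1357 ± 74.5. Both receptors were thus well above background in all 11 arrays, although a haploid cell makes 1 of them, and the mat1 genes themselves were not among the genes measured here. Other markers were uneven. The M-cell gene mfm1 was among the 24 dimmest genes while mfm2 was far brighter, and the P-cell factor map1 was far dimmer than map3 (values below). The rest of the marker set is not described here. In bulk RNA, fewer cells of a type and less RNA per cell cannot be told apart. The meiotic transcription factor mei4 stayed low, at 94.0 ± 8.56, 88.5 ± 11.97 and 88.4 ± 8.74.

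The order of levels was much the same in the 3 projects. Of the 50 brightest genes of each project 38 were common to all 3, and of the 50 dimmest 36 were. Spearman correlations of the project means over 2899 genes were 0.964 between WT 582 and WT 529, 0.953 between WT 582 and WT 488, and 0.973 between WT 529 and WT 488. Genes are not independent replicates, and these values describe the sets with no test.

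The 3 WT sets nevertheless differed in most genes by more than their small spread between arrays, whose median SD of log2 signal was 0.10, 0.083 and 0.071 in WT 582, WT 529 and WT 488. The moderated F test over the 3 project means (limma with an intensity trend) called 2319 of 2899 genes (80%) at a Benjamini-Hochberg adjusted p of 0.05. WT 582 was higher than WT 529 for 1215 genes (41.9%) and lower for 740 (25.5%). WT 582 was higher than WT 488 for 756 (26.1%) and lower for 616 (21.2%), and WT 529 was higher than WT 488 for 635 (21.9%) and lower for 965 (33.3%). Each project holds its own WT arrays, so the project and anything that went with it, such as an array batch or a strain stock, cannot be told apart.

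Most of these differences were small and followed the level of the gene. In the dimmest 10 percent of genes the median log2 difference between WT 582 and WT 529 was 0.53, and in the brightest 10 percent it was -0.36. Between WT 582 and WT 488 the same medians were 0.25 and -0.13, and between WT 529 and WT 488 they were -0.27 and 0.22. After quantile normalization, which gives all arrays 1 distribution, the medians for WT 582 and WT 529 were 0.03 and -0.02, and the split of calls turned to 711 higher and 808 lower. Quantile normalization gave 675 higher and 761 lower for WT 582 and WT 488, and 606 higher and 592 lower for WT 529 and WT 488. With the median of each array set equal, the 3 splits were 762 to 1150, 565 to 847 and 922 to 656. That scaling moved the median of all genes between WT 582 and WT 529 to -0.07, against 0.10 as deposited. The direction of a small difference therefore depends on the scaling. The genes named below were chosen mainly for large differences, but some of them, and most calls in the list counts, were below 2-fold.

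**Figure D2:**
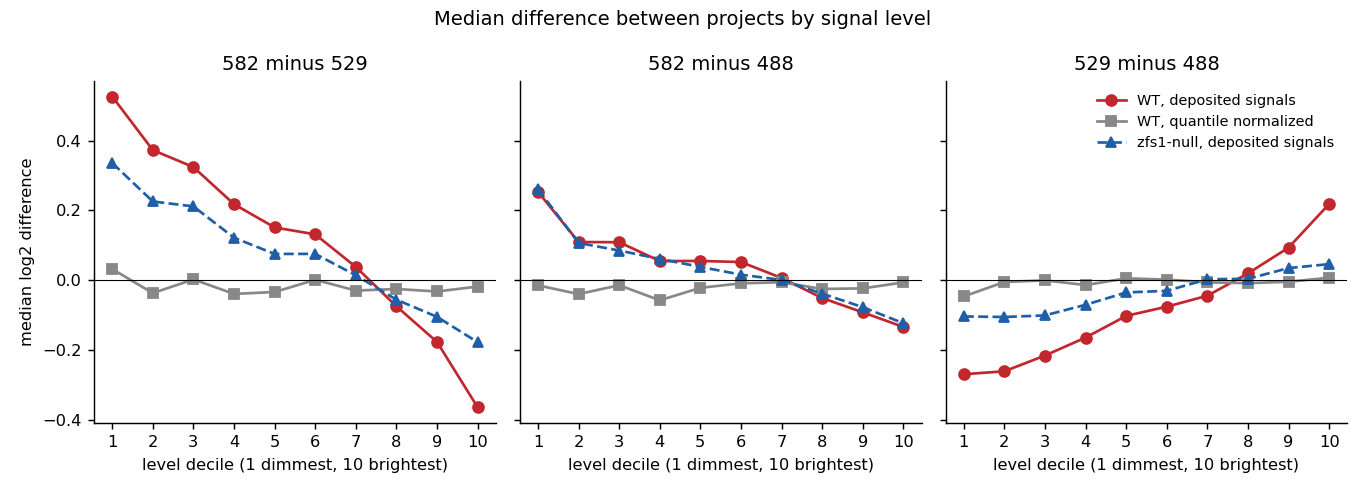
Median log2 difference between WT sets by level. The horizontal axis is the class of genes by WT level, each of 10 percent of the genes, from dimmest to brightest, and the vertical axis is the median log2 difference in that class, for WT arrays as deposited, WT arrays after quantile normalization and zfs1-null arrays as deposited. As deposited, WT 582 minus WT 529 runs between 0.53 in the dimmest and -0.36 in the brightest class, and the quantile line stays near 0.

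A difference of at least 2-fold with an adjusted p under 0.05 was found for 96 genes between WT 582 and WT 529 (88 higher, 3.04%, and 8 lower, 0.276%). Between WT 582 and WT 488 it was found for 83 genes (66 higher, 2.28%, and 17 lower, 0.586%), and between WT 529 and WT 488 for 27 (10 higher, 0.345%, and 17 lower, 0.586%). In all, 146 genes (5.04%) differed so between some pair of sets. WT 582 was the highest set for 115 of them, WT 529 for 9 and WT 488 for 22. They were mostly dim genes: their median level was at the 14.8 percentile, 57 were in the dimmest 10 percent and 0 in the brightest. After quantile normalization 98 genes passed the same thresholds, 84 of them among the 146. Without replicate 1 of WT 582, the 2-fold counts were 109 between WT 582 and WT 529 and 86 between WT 582 and WT 488.

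Genes of mating, meiosis and their cytoskeleton were among those most increased in WT 582. The clearest case of a regulator was ste11 (SPBC32C12.02), the transcription factor that commits cells to mating. Its signal was 2243, 1958 and 1918 in WT 582, 667, 692, 700, 626 and 574 in WT 529, and 775, 756 and 752 in WT 488. Every WT 582 array lay above every other WT array. The fold was 3.13 over WT 529 (log2 1.65, SE 0.073, limma adjusted p = 1.87e-10) and 2.67 over WT 488 (log2 1.42, SE 0.081, adjusted p = 2.77e-09). In the zfs1-null arrays the same log2 differences were 1.35 and 1.59.

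The meiotic recombination genes rec10 and meu13 were also highest in WT 582, with WT 488 rather than WT 529 as the lowest set. The list as a whole did not share that order. Of the 76 meiosis and sporulation genes, 11 were higher and 34 lower in WT 529 than in WT 488 (quantile: 14 and 15). Of all genes, 21.9% were higher and 33.3% lower in that comparison. The linear element protein rec10 (SPAC25G10.04c), part of the axis on which fission yeast recombines, had signals of 807, 777 and 818 in WT 582, 281, 302, 277, 288 and 300 in WT 529, and 171, 176 and 169 in WT 488. The 3 sets did not overlap at all. WT 582 exceeded WT 488 by 4.65-fold (log2 2.22, SE 0.079, limma adjusted p = 3.26e-11) and WT 529 by 2.77-fold (log2 1.47, SE 0.071, adjusted p = 3.84e-10). The recombination factor meu13 (SPAC222.15), the Hop2 homologue, read 695, 647 and 743 in WT 582, 252, 221, 227, 219 and 220 in WT 529, and 176, 169 and 161 in WT 488. Its WT 582 values were again all higher than the rest, by 4.12-fold over WT 488 (log2 2.04, limma adjusted p = 1.81e-10) and 3.05-fold over WT 529 (log2 1.61, adjusted p = 6.12e-10).

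The dynein machinery that swings the nucleus during meiotic prophase was higher in WT 582 as well. The dynein heavy chain dhc1 (SPAC1093.06c) read 444, 394 and 465 in WT 582, 121, 135, 121, 128 and 118 in WT 529, and 168, 143 and 135 in WT 488. The WT 582 arrays stood clear of both other sets, by 3.48-fold over WT 529 (log2 1.80, limma adjusted p = 1.32e-09) and 2.92-fold over WT 488 (log2 1.55, adjusted p = 2.19e-08). Its cortical anchor num1 (SPBC216.02) gave the largest difference between WT 582 and WT 529, with 376, 339 and 380 against 74.9, 75.9, 70.6, 66.4 and 86.9, and with 134, 127 and 119 in WT 488. That is 4.89-fold over WT 529 (log2 2.29, SE 0.105, limma adjusted p = 1.96e-10), and the sets did not overlap. In zfs1-null arrays the log2 difference for num1 between projects 582 and 529 was 1.19, and for dhc1 it was 0.99.

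Genes of pheromone response were highest in WT 582 as well. The MADS-box factor map1 (SPAC11E3.06), which drives P-cell genes, averaged 339 ± 67.1, 112 ± 16.7 and 73.2 ± 6.59 in WT 582, WT 529 and WT 488 (SD, n = 3, 5 and 3), a log2 difference of 1.59 from WT 529 and 2.19 from WT 488 (limma adjusted p = 2.31e-07 and 2.93e-08). The G-protein beta subunit gnr1 averaged 1038 ± 98.8, 305 ± 31.1 and 353 ± 6.44, the regulator of G-protein signalling rgs1 averaged 365 ± 72.3, 155 ± 13.7 and 119 ± 12.2, and the cell fusion protein dni1 averaged 699 ± 75.7, 221 ± 4.55 and 211 ± 12.1. The M-factor precursor gene mfm1 averaged 110 ± 10.01, 34.6 ± 7.62 and 30.8 ± 8.38, and mfm2, a second precursor gene, averaged 2368 ± 95.9, 1828 ± 102 and 951 ± 112. All of them were higher in WT 582 than in WT 488 (limma adjusted p of 6.46e-06 for mfm1, 3.07e-07 for rgs1 and at most 8.84e-09 for gnr1, dni1 and mfm2). In zfs1-null arrays the log2 differences of mfm1 and rgs1 between projects 582 and 488 were 0.03 and 0.20, against 1.87 and 1.60 in WT.

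Of the 32 mating and pheromone genes, 20 were higher and 4 lower in WT 582 than in WT 529 (41.9% and 25.5% of all genes). Against WT 488, 20 were higher and 3 lower (26.1% and 21.2% of all genes). The list's median log2 difference was 0.35 and 0.47 in these comparisons, against 0.10 and 0.01 over all genes. After quantile normalization the counts were 15 and 9 against WT 529, and 16 and 6 against WT 488, with medians of 0.13 and 0.22. Of the 76 meiosis and sporulation genes, 51 were higher and 3 lower than in WT 529, and 43 higher and 9 lower than in WT 488. The medians were 0.39 and 0.32. With quantile normalization the counts became 28 and 16, and 30 and 15, and the medians 0.10 and 0.13. Both lists are dim, and dim genes shifted as a class in the deposited signals. In the dimmest 10 percent of genes the medians were 0.53 and 0.25, and in the next 10 percent 0.37 and 0.11. Against WT 529 the deposited medians of the 2 lists were within or just below that span, and against WT 488 they were above it. At least 2-fold differences between some pair of sets numbered 8 in the mating list and 16 in the meiosis list, and WT 582 was the highest set in all 8 and all 16. It was also the highest for 115 of the 146 genes with such a difference over the whole array, where 5.04% of genes had one. Such genes were mostly dim: 57 of the 146 were in the dimmest 10 percent (289 genes), as were 36 of the 76 meiosis genes and 11 of the 32 mating genes.

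Not every gene of the programme moved that way. The RNA-binding regulator mei2 (SPAC27D7.03c), required to enter meiosis, was lower in WT 582: it read 285, 227 and 307 there, 346, 367, 405, 418 and 419 in WT 529, and 510, 486 and 562 in WT 488. The 3 sets did not overlap, and the log2 differences of WT 582 were -0.52 from WT 529 and -0.94 from WT 488 (limma adjusted p = 3.17e-04 and 8.73e-06). The later genes spo5 and mes1, which act in the meiotic divisions, averaged 228 ± 16.01 and 577 ± 106 in WT 582, against 88.0 ± 13.3 and 255 ± 17.7 in WT 529 (log2 1.38 and 1.16, adjusted p = 1.73e-07 and 3.76e-07). The mei4 level of 94.0 ± 8.56 in WT 582 did not differ detectably from the other sets. Genes named for their meiotic induction were among the leaders too. The protein kinase gene mug27 and mug33 were 3.64-fold and 3.46-fold higher in WT 582 than in WT 529. In WT 582 meu27 was 3.36-fold higher than in WT 529, and mug115 was 3.898-fold higher than in WT 488. Of the whole mug list, 50 of 91 genes were higher and 16 lower in WT 582 than in WT 529, with 32 and 20 when array medians were set equal, but 20 were higher and 27 lower after quantile normalization. Against WT 488, 38 of them were higher and 12 lower, with 32 and 16 when medians were set equal and 25 and 24 after quantile normalization. In zfs1-null cells 42 were higher and 16 lower between projects 582 and 529, against 1030 and 743 of all 2899 genes. Of all genes, 41.9% were higher and 25.5% lower between WT 582 and WT 529, or 711 and 808 genes after quantile normalization. Against WT 488 these shares were 26.1% and 21.2%, or 675 and 761 genes after quantile normalization. WT 582 was the highest set for 9 of the 10 mug genes with a 2-fold difference, and for 115 of the 146 such genes over the whole array.

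**Figure D3:**
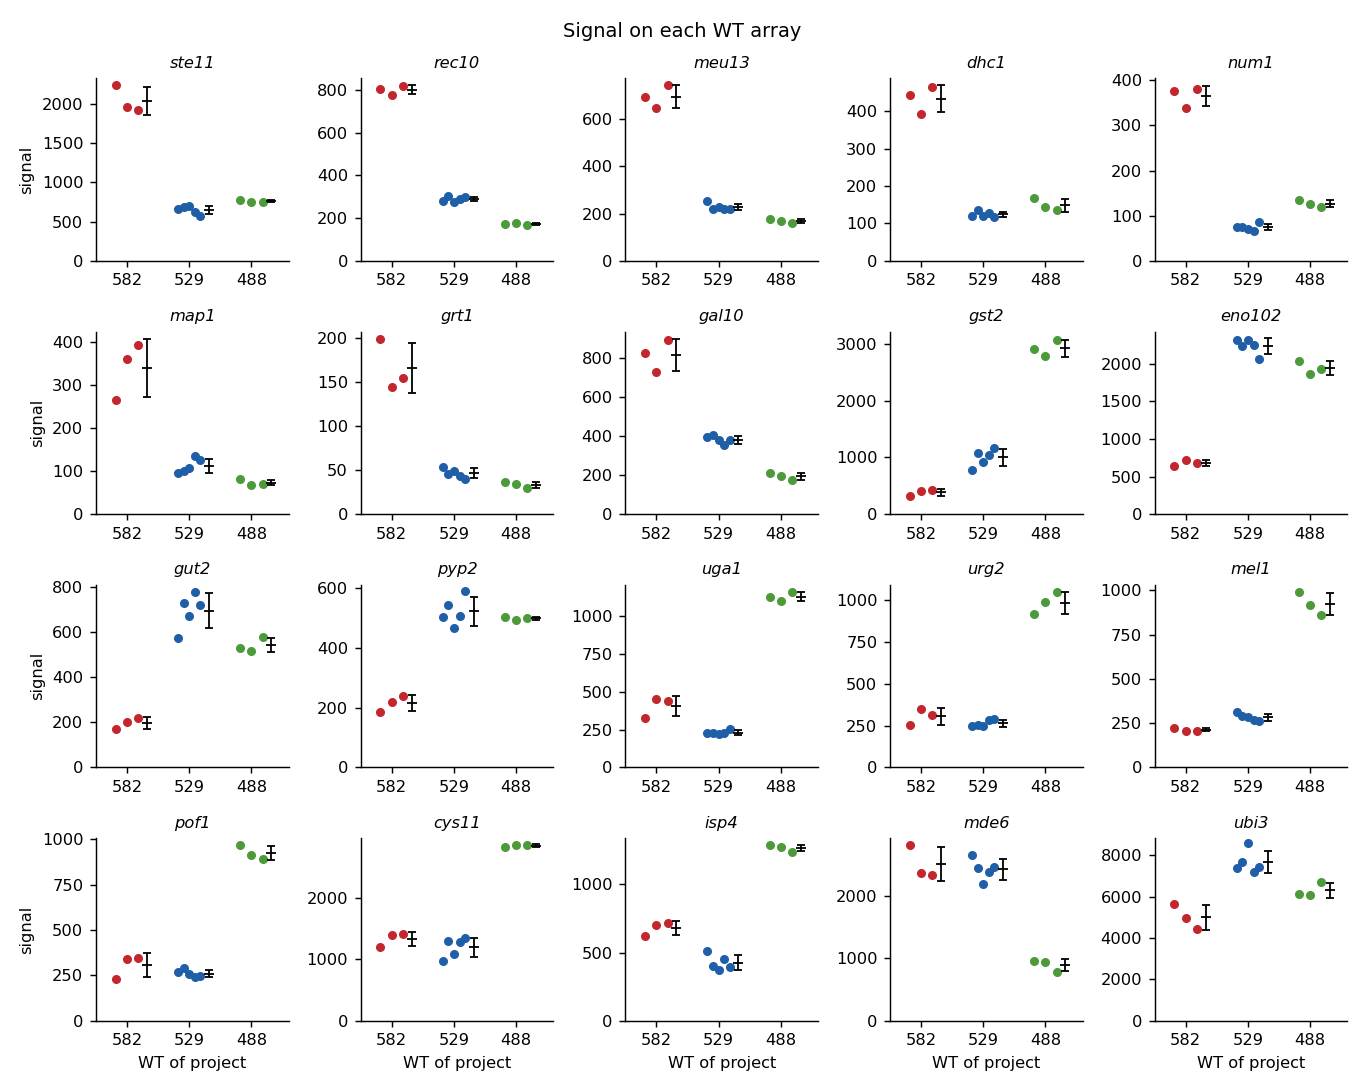
Signals of 20 genes on each WT array. The vertical axis of each panel is the deposited signal on a linear scale from 0, points are arrays in WT 582, WT 529 and WT 488 from left to right, and bars are the mean ± SD. In ste11, rec10, meu13, dhc1, num1 and map1 every WT 582 point lies above all others, and in gst2, uga1, mel1 and pof1 every WT 488 point does.

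Other genes highest in WT 582 lay outside the mating programme. The zinc cluster factor gene grt1 (SPBPB8B6.04c) read 199, 145 and 155 in WT 582, 54.0, 46.1, 49.4, 43.6 and 40.3 in WT 529, and 36.3, 33.8 and 29.3 in WT 488. Its 3 sets did not overlap, and it was the gene most increased in WT 582 over WT 488, by 4.98-fold (log2 2.32, SE 0.153, limma adjusted p = 9.90e-09). The UDP-glucose epimerase gene gal10 (SPBPB2B2.12c) of galactose use read 826, 729 and 892 in WT 582, 395, 406, 378, 352 and 378 in WT 529, and 210, 197 and 174 in WT 488. It fell into 3 separate levels, with folds of 2.13 for WT 582 over WT 529 and 4.21 over WT 488 (limma adjusted p = 7.25e-08 and 3.05e-10). Further genes with large differences from WT 488 were tti2, of the complex that matures TOR kinases, at 4.33-fold, and the alanine racemase gene alr2 at 3.81-fold.

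Mitotic genes were higher in WT 582 than in WT 529 by smaller factors. Of 46 mitosis and septation genes, 34 were higher and 1 lower (quantile: 23 and 7), with a median log2 difference of 0.46 (quantile: 0.16). Of all genes, 41.9% were higher and 25.5% lower in that comparison. The spindle kinesin cut7 (SPAC25G10.07c) read 1139, 1149 and 1033 in WT 582, 479, 509, 513, 477 and 438 in WT 529, and 574, 615 and 562 in WT 488. All WT 582 arrays were above the rest, 2.29-fold over WT 529 (log2 1.20, limma adjusted p = 3.16e-09). The securin gene cut2 averaged 498 ± 21.0 in WT 582 and 243 ± 18.3 in WT 529, and the Aurora kinase gene ark1 averaged 358 ± 22.4 and 179 ± 13.6 there, differences of 1.04 and 1.01 on the log2 scale (adjusted p = 4.80e-07 and 3.44e-07). WT 529 was lower than WT 488 for 32 of these 46 genes and higher for 2 (quantile: 15 and 3), where 33.3% of all genes were lower and 21.9% higher. The kinesin-8 gene klp6 showed it most, at 353 ± 12.7, 205 ± 26.7 and 518 ± 26.8 in WT 582, WT 529 and WT 488, a log2 difference of -1.35 between WT 529 and WT 488 (limma adjusted p = 6.53e-08). Of 11 cell separation genes, 8 were higher and 0 lower in WT 582 than in WT 529 (quantile: 7 and 2), and 7 were lower and 0 higher in WT 529 than in WT 488 (quantile: 5 and 1). The 33 G1/S genes had 22 lower and 2 higher in WT 529 than in WT 488 (quantile: 14 and 2). In zfs1-null arrays, 3 cell separation genes were lower and 5 higher in project 529 than in project 488. There 10 G1/S genes were lower and 5 higher, and 17 mitosis genes were lower and 4 higher, against 692 and 516 of all genes. Between projects 582 and 529, 8 cell separation genes were higher and 2 lower in zfs1-null arrays. For mitosis these counts were 25 and 4, against 1030 and 743 of all genes. The cell separation gene adg2 averaged 371 ± 34.8, 173 ± 9.51 and 320 ± 30.8 in the 3 sets.

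The genes lowest in WT 582 belonged to glycerol and sugar use, a second enolase and stress defence. The mitochondrial glycerol-3-phosphate dehydrogenase gene gut2 (SPCC1223.03c) read 169, 204 and 219 in WT 582, 577, 732, 675, 780 and 721 in WT 529, and 532, 518 and 580 in WT 488. WT 582 lay below both other sets on every array, 3.53-fold below WT 529 (log2 -1.82, SE 0.102, limma adjusted p = 1.82e-09) and 2.77-fold below WT 488 (log2 -1.47, adjusted p = 6.16e-08). The enolase gene eno102 (SPBPB21E7.01c) read 646, 717 and 674 in WT 582, 2313, 2235, 2320, 2244 and 2061 in WT 529, and 2036, 1856 and 1922 in WT 488. Its fold below WT 529 was 3.29 (log2 -1.72, SE 0.055, limma adjusted p = 6.36e-12), while the main enolase eno101 averaged 3687 ± 242, 5040 ± 252 and 4240 ± 226 in the 3 sets. Invertase, inv1, averaged 963 ± 45.7, 2064 ± 69.8 and 1646 ± 54.1, and the dihydroxyacetone kinase gene dak1 averaged 2205 ± 216, 3837 ± 154 and 3050 ± 303 (log2 -1.10 and -0.80 from WT 529, limma adjusted p = 1.87e-10 and 1.39e-07). These carbon genes did not all move in 1 direction. Of 17 genes for other carbon sources, 5 were higher and 8 lower in WT 582 than in WT 529, with a median of -0.01. Of all genes, 41.9% were higher and 25.5% lower in that comparison, with a median of 0.10. After quantile normalization 3 of the 17 were higher and 7 lower, with a median of -0.15. In zfs1-null arrays of these projects 7 were higher and 7 lower.

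Stress genes were lower in WT 582 as a list. Of 31 core environmental stress genes, 5 were higher and 20 lower in WT 582 than in WT 529, with a median log2 difference of -0.31, where 41.9% of all genes were higher and 25.5% lower. Against WT 488, 3 were higher and 19 lower with a median of -0.30, where 26.1% of all genes were higher and 21.2% lower. After quantile normalization the counts were 6 higher and 17 lower against WT 529, and 3 higher and 19 lower against WT 488. With array medians set equal they were 2 higher and 23 lower, and 2 higher and 20 lower. Of 22 genes of Pap1 and thiol defence against oxidants, 13 were lower and 0 higher in WT 582 than in WT 488, before and after quantile normalization (21.2% and 26.1% of all genes as deposited). Against WT 529, 12 were lower and 2 higher in WT 582 (quantile: 11 and 5). WT 529 was also lower than WT 488 for 12 and higher for 3 (quantile: 14 and 2), where 33.3% of all genes were lower and 21.9% higher. The 2 lists share members, among them ctt1, gst2 and srx1, so they are not separate results. The glutathione S-transferase gene gst2 (SPCC965.07c) showed the largest difference of any gene between WT 582 and WT 488. It read 315, 411 and 421 in WT 582, 776, 1085, 927, 1041 and 1169 in WT 529, and 2905, 2784 and 3079 in WT 488. The 3 sets formed 3 separate steps, with WT 582 lower than WT 488 by 7.70-fold (log2 -2.94, SE 0.130, limma adjusted p = 1.62e-10) and lower than WT 529 by 2.61-fold (log2 -1.38, adjusted p = 1.21e-07).

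The phosphatase gene pyp2 (SPAC19D5.01), an inhibitor and target of the Sty1 stress kinase, read 187, 218 and 240 in WT 582, 502, 544, 465, 507 and 590 in WT 529, and 501, 492 and 500 in WT 488. Only WT 582 stood apart, 2.43-fold below WT 529 and 2.33-fold below WT 488 (limma adjusted p = 3.08e-08 and 1.74e-07). The small heat shock gene hsp16, bright in all sets, averaged 2388 ± 200, 4215 ± 190 and 4097 ± 268, a log2 difference of -0.82 from WT 529 (adjusted p = 3.07e-08). The sulfiredoxin gene srx1 averaged 122.6 ± 25.02, 178 ± 10.1 and 317 ± 14.3, a log2 difference of -1.39 from WT 488 (adjusted p = 4.00e-07). The remaining genes among the 8 most reduced in WT 582 against WT 529 were lsd90 at 2.55-fold, mug14 at 2.23-fold and wtf3 at 2.12-fold. Of the 27 wtf and subtelomeric genes, 6 were higher and 8 lower in WT 582 than in WT 529, and 3 and 19 after quantile normalization. Of all 2899 genes, 41.9% were higher and 25.5% lower, or 711 and 808 genes after quantile normalization. Copies within the wtf family can be near-identical, so single values of wtf genes are uncertain.

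WT 488 stood out by higher signals of genes for the use of nitrogen, uracil and sulphur. The GABA transaminase gene uga1 (SPAC19D5.07) read 326, 449 and 437 in WT 582, 224, 225, 220, 226 and 254 in WT 529, and 1124, 1100 and 1155 in WT 488. WT 488 was above every other array, and WT 529 was 4.90-fold below it (log2 -2.29, SE 0.097, limma adjusted p = 2.16e-10), the largest difference between these sets. The oligopeptide transporter gene isp4 (SPBC29B5.02c) read 621, 706 and 715 in WT 582, 508, 405, 373, 451 and 393 in WT 529, and 1286, 1275 and 1239 in WT 488. WT 488 was again highest on every array, with log2 differences of -0.90 for WT 582 and -1.58 for WT 529 (limma adjusted p = 3.96e-06 and 3.91e-09). The vacuolar protease isp6 averaged 887 ± 6.50, 780 ± 91.1 and 1750 ± 52.5, and the NAD-dependent glutamate dehydrogenase gdh2 averaged 520 ± 31.1, 794 ± 36.4 and 1223 ± 72.6.

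Of 27 nitrogen-responsive genes, 16 were lower and 5 higher in WT 582 than in WT 488 (21.2% and 26.1% of all genes), and 19 were lower and 3 higher in WT 529 than in WT 488 (33.3% and 21.9%). The median log2 differences were -0.25 and -0.37, against 0.01 and -0.07 over all genes. The counts after quantile normalization were 18 lower and 3 higher, and 12 lower and 2 higher. In zfs1-null arrays, 9 were lower and 6 higher in project 582 than in project 488, with a median log2 difference of -0.03. Between projects 529 and 488, 11 were lower and 2 higher in these arrays, with a median of -0.17. Of all 2899 genes, 659 were lower and 796 higher in the former zfs1-null comparison, and 692 and 516 in the latter. The same list mixes kinds of genes: mei2 and isp4 are induced when nitrogen is removed, while gln1, at a level of 2878, and gdh1, at 2830, assimilate ammonium.

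The uracil-regulated genes urg1, urg2 and urg3 are neighbours in the RefSeq annotation of assembly ASM294v3. The uracil phosphoribosyltransferase gene urg2 (SPAC1002.17c) read 252, 353 and 314 in WT 582, 249, 252, 248, 283 and 290 in WT 529, and 917, 989 and 1049 in WT 488. The other 2 genes of the cluster were also highest in WT 488, with urg1 at 1007 ± 67.3, 1011 ± 13.2 and 2801 ± 27.5 and urg3 at 760 ± 67.9, 534 ± 39.1 and 1075 ± 158. The log2 differences between WT 529 and WT 488 were -1.90 for urg2, -1.47 for urg1 and -1.001 for urg3 (limma adjusted p = 2.34e-09, 1.67e-11 and 1.00e-06). A second neighbouring pair differed likewise: the alpha-galactosidase gene mel1 (SPAC869.07c) read 225, 208 and 207 in WT 582, 311, 293, 284, 269 and 260 in WT 529, and 990, 918 and 863 in WT 488, and pcm2, a protein repair methyltransferase gene, averaged 122 ± 10.3, 79.3 ± 3.92 and 161 ± 10.3. For mel1 the log2 differences from WT 488 were -2.11 for WT 582 and -1.70 for WT 529 (limma adjusted p = 1.38e-10 and 5.24e-10). In zfs1-null arrays the log2 differences of mel1 from project 488 were -0.76 for project 582 and 0.17 for project 529.

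Sulphur genes were higher in WT 488 too. Of 14 genes of sulphur amino acid and glutathione synthesis, 9 were lower and 0 higher in WT 582 than in WT 488, and 10 were lower and 0 higher in WT 529 than in WT 488 (quantile: 8 and 1, and 11 and 0). Of all genes, 21.2% were lower and 26.1% higher in the first of these comparisons, and 33.3% were lower and 21.9% higher in the other. The cysteine synthase gene cys11 (SPBC36.04) read 1209, 1393 and 1417 in WT 582, 981, 1306, 1084, 1278 and 1342 in WT 529, and 2833, 2871 and 2868 in WT 488. WT 582 and WT 529 overlapped, and both lay below WT 488, with log2 differences of -1.10 and -1.26 (limma adjusted p = 4.01e-07 and 5.22e-08). The F-box gene pof1 (SPAC57A10.05c), whose product controls the sulphur regulator Zip1, read 230, 341 and 347 in WT 582, 270, 289, 256, 239 and 245 in WT 529, and 967, 910 and 892 in WT 488, 3.56-fold higher in WT 488 than in WT 529 (limma adjusted p = 1.18e-08). The glutathione transporter gene pgt1 averaged 684 ± 96.6, 548 ± 114 and 1638 ± 130, and cys2 averaged 1674 ± 161, 1085 ± 69.0 and 2478 ± 166. The protein kinase gene ppk31 completed the genes most reduced in WT 529 against WT 488, at 505 ± 74.0, 327 ± 28.3 and 1470 ± 49.1.

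A smaller group was low in WT 488 alone. The gene mde6 (SPAC15A10.10), named for its dependence on the meiotic factor Mei4, read 2819, 2374 and 2332 in WT 582, 2661, 2445, 2196, 2380 and 2467 in WT 529, and 959, 934 and 779 in WT 488. WT 582 and WT 529 overlapped and both exceeded WT 488, by 2.82-fold and 2.73-fold (limma adjusted p = 3.47e-09 and 2.58e-09). The heterochromatin boundary gene epe1 averaged 1511 ± 84.6, 1546 ± 135 and 608 ± 68.9, and the ferric reductase gene frp1 averaged 797 ± 92.5, 662 ± 43.7 and 285 ± 37.5. The hexose transporter ght7, dim throughout, averaged 67.6 ± 10.7, 46.5 ± 4.77 and 20.4 ± 2.03, and cbp6, of mitochondrial cytochrome b production, averaged 2607 ± 90.8, 2177 ± 262 and 989 ± 92.8. The subtelomeric helicase gene tlh2, which has several near-identical copies, averaged 136 ± 13.9, 162 ± 29.2 and 66.2 ± 2.80. These genes, with tti2 and alr2, are the 8 with the largest positive difference between WT 529 and WT 488, from 1.13 for cbp6 to 1.45 for mde6 on the log2 scale.

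One gene that the study itself deleted elsewhere in the series also differed between its WT sets. The transcription factor gene cbf12 (SPCC1223.13), of the CSL family linked to cell adhesion, read 188, 170 and 195 in WT 582, 268, 263, 237, 282 and 349 in WT 529, and 363, 435 and 332 in WT 488. WT 582, the set beside which the cbf12-null cells were measured, was the lowest, with a log2 difference of -1.03 from WT 488 (SE 0.134, limma adjusted p = 1.72e-05). In zfs1-null arrays the same difference was -0.97.

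The counts for the growth machinery depended strongly on the scaling. Of 118 ribosomal protein genes, 2 were higher and 107 lower in WT 582 than in WT 529, with a median log2 difference of -0.38, but after quantile normalization 15 were higher and 29 lower with a median of -0.03. In that comparison 41.9% of all genes were higher and 25.5% lower. Between WT 582 and WT 488, 19 were higher and 27 lower with a median of -0.03, and quantile normalization turned this to 58 higher and 11 lower with a median of 0.12. Of all genes, 26.1% were higher and 21.2% lower there, or 675 and 761 genes after quantile normalization. Between WT 529 and WT 488, 113 were higher and 0 lower, and after quantile normalization 64 were higher and 4 lower, with medians of 0.34 as deposited and 0.13 after it. In this comparison 21.9% of all genes were higher and 33.3% lower, or 606 and 592 genes after quantile normalization. Of 13 glycolysis genes, 10 were lower and 0 higher in WT 582 than in WT 529, against 2 lower and 2 higher after quantile normalization. In the same comparison 15 of 18 translation factors and 20 of 27 chaperones were lower, against 6 and 9 after quantile normalization. No ribosomal protein gene differed by 2-fold in any comparison.

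**Figure D4:**
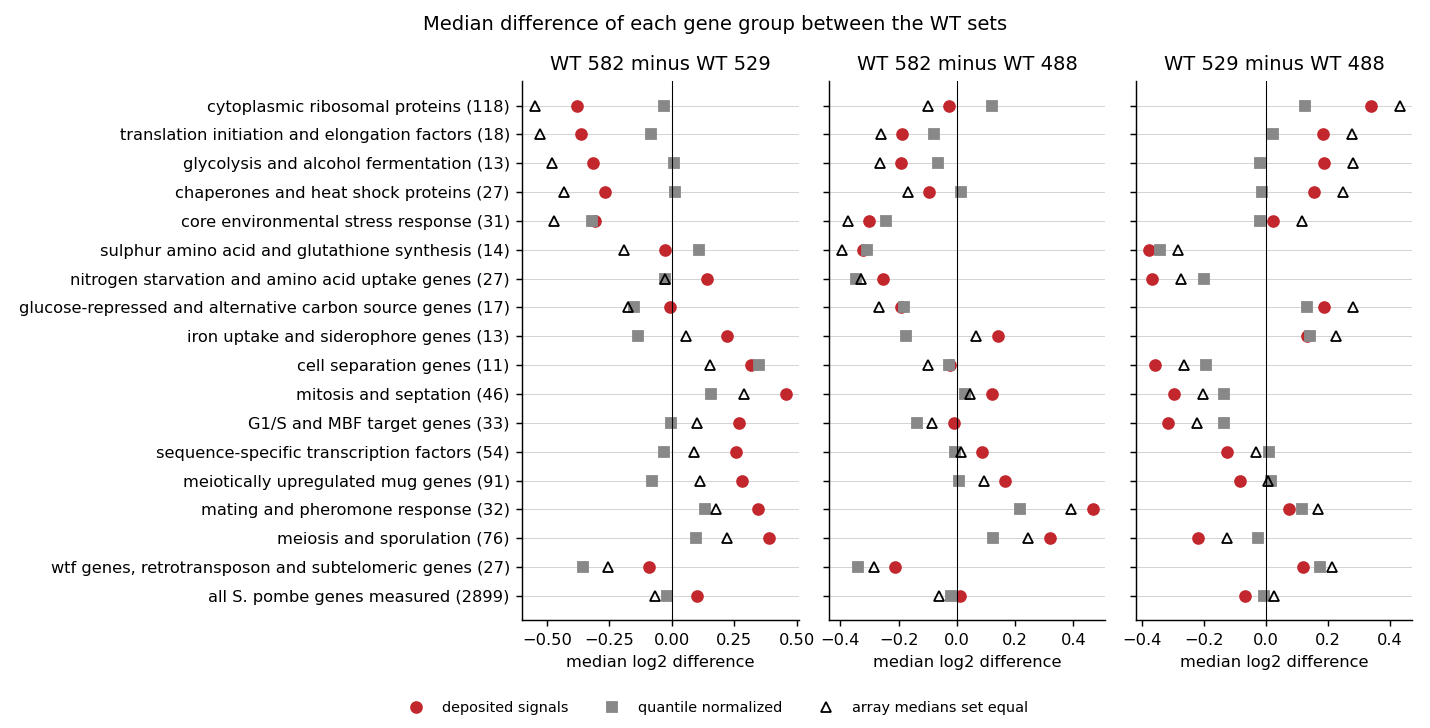
Median log2 difference of each functional list between the WT sets. The horizontal axis is the median log2 difference of the list, 1 panel per pair of sets, with a marker each for the deposited scaling, quantile normalization and array medians set equal. For WT 582 minus WT 529 the ribosomal protein median is -0.38 as deposited and -0.03 after quantile normalization, whereas core stress stays at -0.31 and -0.32.

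The zfs1-null arrays of each project were not used in the WT comparison and show how far its differences recur in other cultures of the same project. Of the 88 genes at least 2-fold higher in WT 582 than in WT 529, 87 had the same sign in zfs1-null cells and 85 were also called (35.5% of all genes were called higher there), while 29 reached 2-fold (1.28% of all genes). Of the 66 higher in WT 582 than in WT 488, 65 had the same sign, 59 were called (27.5% of all genes) and 33 reached 2-fold (1.97%). Of the 17 lower in WT 582 than in WT 488, 17 had the same sign, 16 were called (22.7% of all genes) and 9 reached 2-fold (0.379%). Of the 17 lower in WT 529 than in WT 488, 16 had the same sign, 15 were called (23.9% of all genes) and 4 reached 2-fold (0.138%). None of the 2-fold genes of any comparison was called in the opposite direction in zfs1-null cells.

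The sizes were not the same in the 2 strains. The interaction of strain and project (limma moderated F test over 22 arrays) was called for 570 of 2899 genes (19.7%) and for 79 of the 146 genes with a 2-fold difference (54.1%). These 146 were chosen for large WT differences, so a smaller difference in the other strain is built into that share. For ste11, gst2 and grt1 the zfs1-null log2 differences between projects 582 and 488 were 1.59, -2.46 and 2.16, close to the WT values of 1.42, -2.94 and 2.32. For epe1, alr2 and eno102 they were 0.30, 0.14 and -0.17 in zfs1-null cells, against WT values of 1.32, 1.93 and -1.51.

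**Figure D5:**
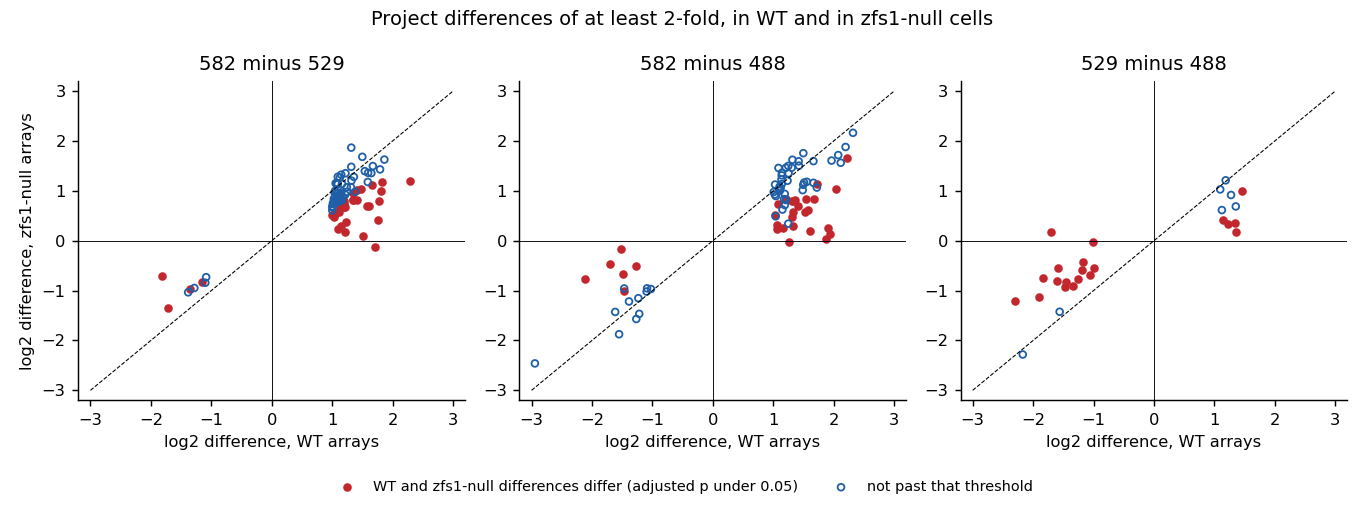
Project differences of the genes that differed at least 2-fold between WT sets. Each point is a gene, with the WT log2 difference on the horizontal axis and the zfs1-null log2 difference of the same projects on the vertical axis, 1 panel per pair of projects; red filled points have an interaction adjusted p under 0.05. Most points lie in the quadrants of equal sign, and many lie nearer 0 in zfs1-null cells.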

How the data were processed

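The signals of 11 WT and 11 zfs1-null arrays of projects 582, 529 and 488 were analysed, with RNA labelled as poly(A)+ in the molecule field and as total RNA in the protocol. The authors deposited 1 signal intensity per probe set and array, made with MAS5 per the submitters' processing notes; its settings were not stated in the labels or headers. Signals under 1 were set to 1 and log2 was taken, with no further scaling. Probe sets were named through the platform annotation and RefSeq (assembly ASM294v3, 113 symbols updated), 20 probe sets with several genes were left out, and 5177 probe sets without a listed gene were not named. Tests used limma 3.58.1 in R 4.3.3 (lmFit and eBayes with an intensity trend): 1 mean per WT set, the F test and 3 pairwise contrasts, and for the interaction 1 mean per strain and project over 22 arrays. P-values were Benjamini-Hochberg adjusted over 2899 genes at a threshold of 0.05. The fit was tested on simulated data. The number of arrays limits the precision.

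Named genes were the 24 brightest, the 24 dimmest and the 8 largest differences in each direction of each comparison. Those differences came from called genes whose arrays did not overlap. Leading members of the lists, some of the mating-type and strain markers, and neighbours called the same way were also named. The choice of members and lists was made with earlier results of these data known, and 46 entries of the lists were removed, as misassigned, after values had been seen. Replicate numbers in the titles were checked for pairing: deviations of same-numbered arrays correlated between -0.14 and 0.37 over 9 pairs of arrays, so no block was used. Alternatives were the replicate block, quantile normalization, equal array medians, log2 of signal plus 16, a minimum mean signal of 50, the mean of a gene's probe sets, no trend, all 28 arrays in the fit and each WT array left out.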

Additional observations from a re-analysis of the deposited data

Results flagged for a closer look

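Of 104 named genes, 10 had 1 of the 5 WT 529 arrays far from the other 4, where chance flags about 1 in 20 groups (sets of 3 were not examined). Replicate 3 was the highest for rpl4102 (7314), rps23 (5559), mug33 (231), mug14 (3656) and hsp16 (4544) and the lowest for tti2 (713). Replicate 1 was the highest for meu13 (252) and tlh2 (213) and the lowest for exo5 (30.9), and replicate 5 was the highest for uga1 (254).

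For 53 of 97 tested differences, the difference between WT sets was not the same as that between zfs1-null sets (interaction, limma adjusted p under 0.05). The 97 were chosen for large WT differences or because the text names them, so smaller zfs1-null differences are partly built into that count. Over all 2899 genes the interaction F test called 570 (19.7%). Values are log2, WT difference minus zfs1-null difference. For 582 minus 529 they were 1.83 for mfm1, 1.33 for meu27, 1.10 for num1, 1.04 for rgs1, 0.98 for gnr1, 0.91 for meu13, 0.86 for adg2, 0.81 for dhc1, 0.64 for grt1, 0.54 for dni1, 0.53 for mel1, 0.51 for cut7 and 0.43 for rec10. The same comparison gave -1.11 for gut2, -0.38 for lsd90, -0.37 for eno102 and -0.32 for mug14. For 582 minus 488 they were 1.84 for mfm1, 1.79 for alr2, 1.40 for rgs1, 1.02 for epe1, 1.01 for meu13, 0.94 for num1, 0.75 for mfm2, 0.70 for dhc1, 0.59 for dni1, 0.57 for rec10 and 0.45 for hsp16. It also gave -1.35 for mel1, -1.34 for eno102, -1.24 for urg2, -0.96 for mei2, -0.83 for uga1 and -0.46 for urg1.

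For 529 minus 488 the values were 1.17 for epe1, 0.98 for alr2, 0.88 for frp1, 0.72 for cbp6, 0.45 for mde6 and 0.40 for gal10. On the other side were -1.88 for mel1, -1.09 for pof1, -1.08 for uga1, -1.03 for isp4, -0.99 for pcm2, -0.79 for pgt1, -0.78 for urg2, -0.74 for isp6, -0.59 for cys2, -0.53 for urg1, -0.50 for cys11, -0.45 for urg3 and -0.44 for klp6. Outside the named genes, 2058 of the 5177 probe sets without a listed gene lay above background on all 11 WT arrays, and 923 of the 5177 were brighter than the median gene.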

How the results depend on the processing

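All 97 differences of single genes that were tested kept their sign and their side of the threshold in each alternative run (1842 values). They were chosen as large or already named, so this was largely fixed by the choice. Of the 88 genes at least 2-fold higher in WT 582 than in WT 529, 24 remained so after quantile normalization. Of the 66 higher than in WT 488, 49 did. All 8 and all 17 genes lower in WT 582 in these comparisons remained so. Quantile normalization lowered the 2-fold differences between WT 582 and WT 529 to 39 (24 higher and 15 lower), against 96 as deposited, and the called interactions to 323, against 570. With array medians set equal, the 2-fold differences between WT 582 and WT 529 numbered 50 (42 higher and 8 lower). The direction of some whole lists turned with quantile normalization: between WT 582 and WT 529 the mug list went to 20 higher and 27 lower, against 50 and 16 as deposited, and iron uptake to 1 higher and 5 lower, against 8 and 1. Between WT 582 and WT 488 the ribosomal proteins went to 58 higher and 11 lower, against 19 and 27. The called shares that were higher, 62.1%, 55.1% and 39.7% in the 3 comparisons, became 46.8%, 47.0% and 50.6% after quantile normalization and 39.9%, 40.0% and 58.4% with medians set equal.

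Leaving out 1 WT array at a time gave 2173 to 2400 genes in the F test, 1771 to 2033 between WT 582 and WT 529 (91 to 109 at 2-fold), 1158 to 1455 between WT 582 and WT 488 (82 to 90 at 2-fold), 1294 to 1779 between WT 529 and WT 488 (27 to 28 at 2-fold), 435 to 677 interactions, and 36 to 38 genes among the 50 brightest of all 3 projects. Without replicate 1 of WT 582, which stood apart, the F test called 2400 genes. With the replicate number as a block it called 2212 genes, with 1818, 1310 and 1425 in the 3 comparisons and 558 interactions; the samples share only a number, and the block turned no call of a named gene. Array signals have no count depth, so precision rests on 3, 5 and 3 arrays.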
